A study of Mus musculus with 18 samples.

Results

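The 10 genes described here encode regulators of the trophoblast lineage and the keratins of simple epithelia. They were taken by symbol from the gene tables, and each of Elf5, Eomes, Tfap2c, Gata3, Hand1, Tead4, Krt7, Krt8, Krt18 and Krt19 matched 1 of the 24505 genes listed. The cells were E14Tg2a mouse embryonic stem cells (ESCs), either the wild-type parental line or a Daxx-null line derived from it, each grown in 3 cultures with 3 libraries per group (18 libraries in all). Serum cultures held fetal bovine serum and LIF at 1000 units/mL. The 2i cultures were serum-free, with inhibitors of GSK3 and MEK, LIF and vitamin C at 100 µg/mL. The retinoic acid cultures were kept for 24 h without LIF and then for 4 days with 10 µM retinoic acid, a treatment meant to yield neural cells. Neither the deleted part of Daxx nor the number of Daxx-null clones is stated in the labels. What Daxx itself does and what else sets the 2 lines apart therefore cannot be told apart. Values are FPKM (read units per kilobase of exon, scaled to the library) as deposited, and means are given ± SD over n = 3 libraries.

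The trophoblast forms the outer layer of the blastocyst and later the placenta, a lineage that ESCs rarely enter. Tead4, a DNA-binding partner of the co-activator YAP, acts at the top of its network and switches on Cdx2 and Gata3. Eomes, Elf5 and Tfap2c sustain one another in trophoblast stem cells, and Hand1 drives the formation of trophoblast giant cells. Keratin filaments are built from pairs of a type II chain (Krt7 or Krt8) and a type I chain (Krt18 or Krt19), and the first of them in the embryo, Krt8 and Krt18, appear in the outer cells of the blastocyst. None of the 10 genes is unique to trophoblast: Eomes also acts in mesendoderm, Tfap2c in germ cells, Gata3 in surface ectoderm and some neurons, Hand1 in amnion and lateral mesoderm, and simple keratins in endoderm and most simple epithelia. DAXX is a chaperone of histone H3.3 that takes part in the silencing of repeats.

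Of the genes that were higher in Daxx-null cells in 2i, 4 had an entry in the RefSeq promoter table (GRCm38.p6). Their 250 bases before the annotated start are printed below in the direction of transcription, since the question of what these genes share begins there. Capitals mark matches to GATAA (GATA factors) or GCCNNNGGC (TFAP2 factors), searched on both strands. GATAA reads TTATC on the opposite strand, and GCCNNNGGC is its own reverse complement, so each site is counted once. Krt8 lies at chr15:102004343-102004592 on the minus strand, Krt18 at chr15:102027966-102028215 on the plus strand, Krt7 at chr15:101412153-101412402 on the plus strand and Gata3 at chr2:9878601-9878850 on the minus strand.
Krt8: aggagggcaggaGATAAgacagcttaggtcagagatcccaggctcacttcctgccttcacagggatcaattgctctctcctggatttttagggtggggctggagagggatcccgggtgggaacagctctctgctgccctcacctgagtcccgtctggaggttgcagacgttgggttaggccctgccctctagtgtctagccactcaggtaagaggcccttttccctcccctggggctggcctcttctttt
Krt18: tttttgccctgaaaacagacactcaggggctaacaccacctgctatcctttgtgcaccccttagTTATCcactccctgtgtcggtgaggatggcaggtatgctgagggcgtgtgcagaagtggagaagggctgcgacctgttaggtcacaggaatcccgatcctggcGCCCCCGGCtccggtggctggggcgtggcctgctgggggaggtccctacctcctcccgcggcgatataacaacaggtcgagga
Krt7: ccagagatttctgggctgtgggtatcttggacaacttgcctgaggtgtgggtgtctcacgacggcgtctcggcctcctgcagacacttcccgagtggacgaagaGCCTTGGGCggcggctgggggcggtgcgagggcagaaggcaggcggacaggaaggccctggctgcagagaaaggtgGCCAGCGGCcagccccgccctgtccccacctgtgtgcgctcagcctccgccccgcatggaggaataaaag
Gata3: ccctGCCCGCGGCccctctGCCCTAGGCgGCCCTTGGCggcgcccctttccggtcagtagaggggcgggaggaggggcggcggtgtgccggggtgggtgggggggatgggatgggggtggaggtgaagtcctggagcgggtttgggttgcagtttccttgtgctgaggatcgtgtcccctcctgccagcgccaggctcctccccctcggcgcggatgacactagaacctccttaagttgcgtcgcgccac

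Krt8 and Krt18 each held 1 GATAA match, starting 238 and 186 bp before the start. GCCNNNGGC was found once in Krt18 (83 bp before the start), at 2 places in Krt7 (146 and 70 bp) and at 3 in Gata3 (246, 231 and 221 bp). Among all 32851 promoters of that length in the table, 22.6% held GATAA and 13.7% held GCCNNNGGC. GGAATG (TEAD factors, in 12.6% of promoters) and TGACTCA (AP-1, in 4.46%) were in none of the 4 windows. The number of CG dinucleotides, where DNA methylation is placed, was 3 in Krt8, 12 in Krt18, 16 in Krt7 and 19 in Gata3, against a median of 6 over all promoters. No motif searched was thus shared by all 4, and the promoters of the paired genes Krt8 and Krt18 differed in CG number. These are matches of letters only.

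In the files, which use the mm9 build, the genes lie as follows. Krt8 (NM_031170, chromosome 15, 101827142 to 101834773, minus strand) and Krt18 (NM_010664, chromosome 15, 101858647 to 101862457, plus strand) are neighbours, and Krt7 (NM_033073, 101242834 to 101258237, plus strand) is on the same chromosome. Krt19 (NM_008471, 100002126 to 100007240, minus strand) and Hand1 (NM_008213, 57642215 to 57645649, minus strand) lie on chromosome 11. Chromosome 2 carries Elf5 (NM_001145813, 103252255 to 103291145, plus strand), Tfap2c (NM_009335, 172375093 to 172384121, plus strand) and Gata3 (NM_008091, 9778705 to 9800227, minus strand). Eomes (NM_010136, 118387307 to 118395250, plus strand) is on chromosome 9 and Tead4 (NM_001080979, 128177161 to 128250831, minus strand) on chromosome 6. Values cover the exons of each gene as a whole. A near-copy of Krt8, Krt8-ps, is named in the reference gene table, so the division of reads between them is uncertain.

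Several facts of the series bear on these genes. Depth, recovered from the steps of low FPKM values, was 51.1 to 82.4 M units in exons per library (1 M is 1000000). Daxx itself was 54.4 to 73.7 FPKM in the 9 Daxx-null libraries and 237.6 to 434.3 in the 9 wild-type ones. The summed FPKM of the Y-linked genes Eif2s3y, Uty and Ddx3y was 155.5 to 349.4 in wild type, 173.2 to 236.5 in Daxx-null 2i, and only 1.20 to 2.68 in Daxx-null serum and retinoic acid. Daxx-null cells in 2i thus differed from Daxx-null cells elsewhere not by medium alone but also by Y-linked RNA. The third libraries stood apart for several of the 10 genes: wild-type serum and wild-type 2i replicates 3 were the lowest of their groups for all 4 keratins and the highest for Tead4. The results are therefore also given without them. Daxx-null 2i replicate 2 stood apart for markers of other cell types: Pou5f1, a core pluripotency gene, was 1918 FPKM there against 5198 and 4250 in its sisters, the mesoderm marker Msx1 203.8 against 19.02 and 19.5, and the neural marker Sox1 42.9 against 3.54 and 4.65. In bulk RNA, fewer cells of a type and less RNA per cell cannot be told apart.

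**Figure D1:**
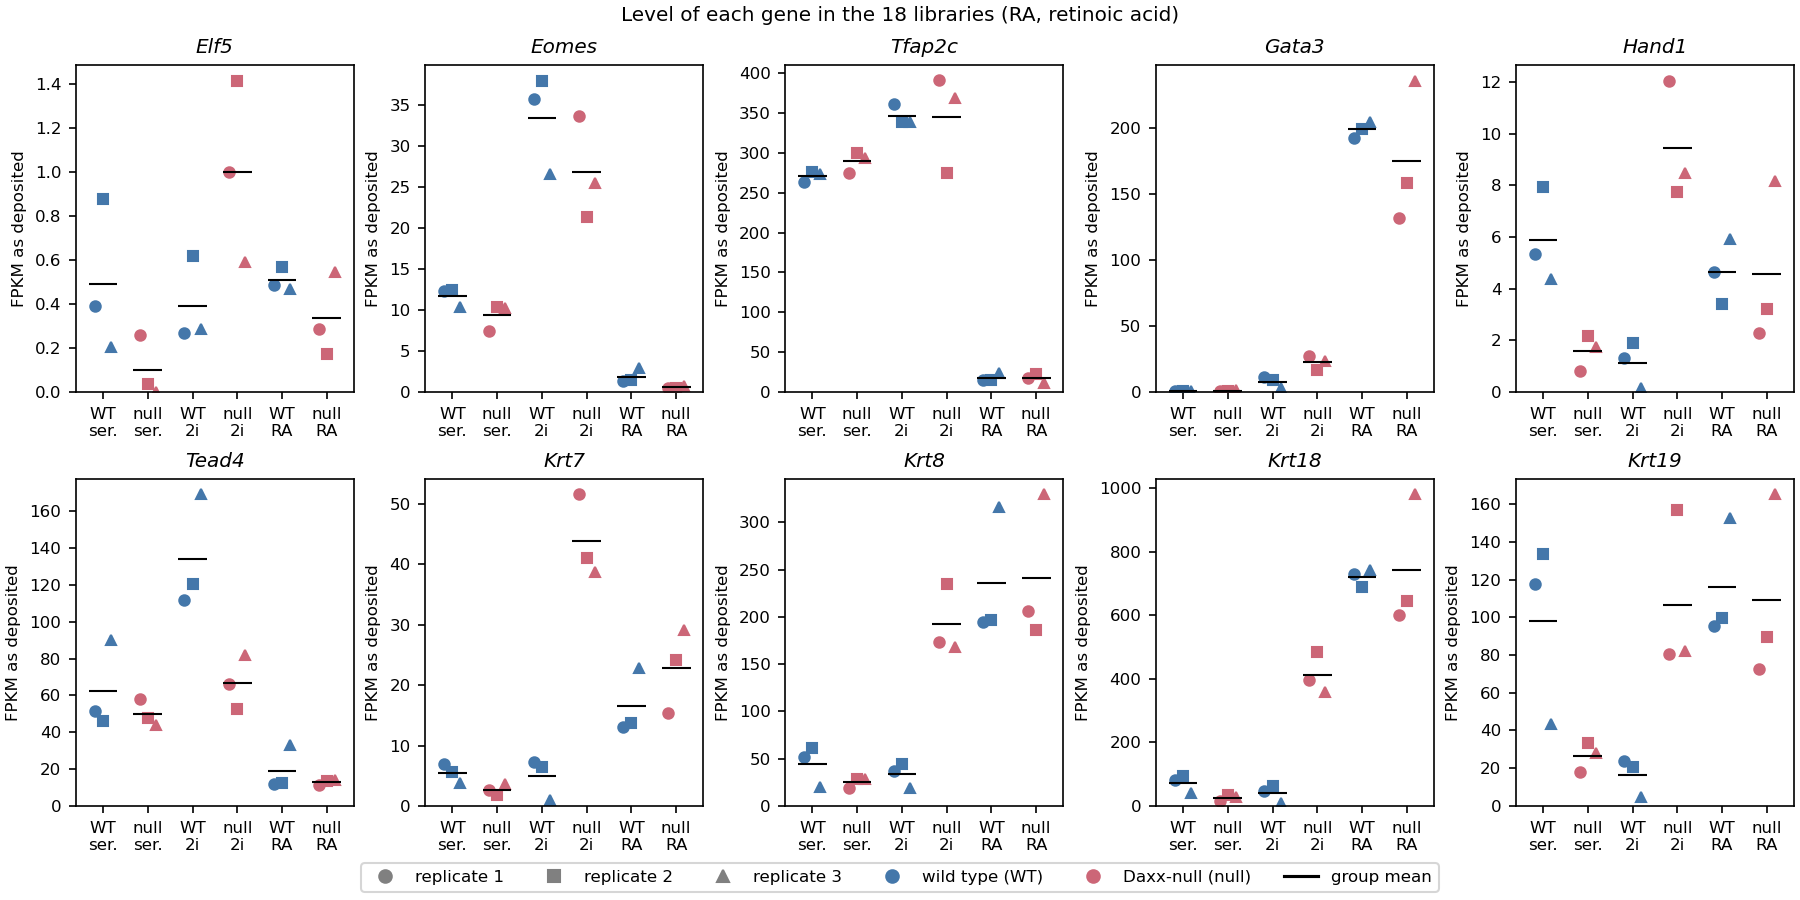
FPKM as deposited (vertical axes, each from 0) of the 10 genes in the 18 libraries, by genotype (colour; WT, wild type; null, Daxx-null) and culture (ser., serum; 2i; RA, retinoic acid), with replicates by symbol and a line at each group mean of 3. The 4 keratins and Hand1 are higher in all 3 Daxx-null 2i libraries than in any wild-type 2i library, Tead4 is lower, and Gata3 is near 0 in serum.

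The comparison of Daxx-null with wild-type cells in 2i, the ground state of pluripotency, gave the largest differences between the genotypes. All 4 keratins, Hand1 and Gata3 were higher in Daxx-null cells and Tead4 was lower. That is 6 of the 9 genes tested called higher, where 31.5% of all 18002 genes tested were, and 1 called lower, where 15.3% were. Elf5 had too little signal to be tested. A gene was called at an adjusted p under 0.05 (limma, Benjamini-Hochberg over all genes). Differences are on the scale of log2(FPKM + 0.5), on which changes of weakly expressed genes come out too small. The median difference of the 9 was 2.58, against 0.199 over all genes.

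Krt18, the type I partner of Krt8, was 395, 486 and 360 FPKM in the Daxx-null 2i libraries (replicates 1 to 3) and 47.9, 62.8 and 9.80 in wild type. Every Daxx-null library was above every wild-type one, and wild-type replicate 3 was far below its sisters. The means were 413.3 ± 65.0 and 40.2 ± 27.3, a ratio of 10.3, and the log2 difference was 3.70 (SE 0.491, adjusted p = 3.01e-05), the 28th highest of the 18002 genes. Krt8, its type II partner and the most widely used simple keratin, was 174, 235 and 168 FPKM against 37.1, 44.1 and 18.9. The groups did not overlap, and the difference was 2.58 (SE 0.381, adjusted p = 7.62e-05), a ratio of means of 5.76. Krt7, a type II keratin of ducts, glands and trophoblast, was 51.6, 41.1 and 38.7 FPKM against 7.31, 6.50 and 0.969. Again all Daxx-null libraries were higher, by 3.35 (SE 0.490, adjusted p = 6.89e-05), the 80th highest difference. Krt19, the smallest type I keratin, was 80.3, 157 and 81.9 FPKM against 23.8, 20.8 and 4.82. Replicate 2 was the highest Daxx-null library here and for Krt8 and Krt18, and the difference of Krt19 was 2.86 (SE 0.532, adjusted p = 4.78e-04).

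Among the regulators, Hand1 was 12.05, 7.75 and 8.47 FPKM in Daxx-null 2i libraries and 1.31, 1.90 and 0.161 in wild type. The groups did not overlap, and the wild-type values rest on only 26, 33 and 3 read units. The log2 difference was 2.78 (SE 0.477, adjusted p = 2.54e-04). Gata3, which acts beside Cdx2 in setting up the trophoblast, was 27.7, 16.8 and 23.2 FPKM against 11.3, 8.93 and 3.08. All Daxx-null libraries were higher, by 1.62 (SE 0.365, adjusted p = 0.00202), a ratio of means of 2.90. With only the groups compared in the fit, that call was lost (adjusted p = 0.0603).

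Tead4 moved the other way, with 66.3, 52.9 and 81.8 FPKM in Daxx-null 2i libraries and 112, 121 and 170 in wild type. The Daxx-null libraries were all below the wild-type ones, with a difference of -0.99 (SE 0.327, adjusted p = 0.0205). The call was lost without wild-type replicate 3, the highest library (-0.81, adjusted p = 0.0913), and without Daxx-null replicate 2, the lowest (-0.84, adjusted p = 0.071). The stem-state factors Eomes and Tfap2c were not called. Eomes was 33.7, 21.4 and 25.5 FPKM against 35.7, 38.0 and 26.6, a difference of -0.32 with a 95% interval of -0.88 to 0.24 (adjusted p = 0.335). It was called lower under quantile normalization (-0.75, adjusted p = 0.0295) and in the authors' deposited log2 table (-0.73, adjusted p = 0.0211). Tfap2c, at 391, 275 and 369 FPKM against 361, 338 and 339, was among the most abundant of the 10 and differed by -0.02 (interval -0.46 to 0.42, adjusted p = 0.944).

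Elf5, known to be kept silent in ESCs by DNA methylation of its promoter, had the lowest mean of the 10 genes in all 6 groups (0.0983 to 1.00 FPKM). Its values were 1.00, 1.42 and 0.591 FPKM in Daxx-null 2i libraries (24, 31 and 12 read units) and 0.270, 0.618 and 0.288 in wild type (6, 12 and 6 units). Daxx-null replicate 3 was below wild-type replicate 2, so the groups overlapped. It was tested only in the fit without a filter (22133 genes), where it differed by 0.74 (SE 0.27, adjusted p = 0.0405).

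Wild-type 2i replicate 3 was low for all genes called higher, but the 6 calls remained without it. The keratin differences were then 2.89 for Krt18, 2.57 for Krt7, 2.22 for Krt8 and 2.16 for Krt19, with Hand1 at 2.23 and Gata3 at 1.10. Without the third libraries of all groups, again 6 were higher and 1 lower. Scaling moved the median of all genes from 0.199 as deposited to -0.03 under quantile normalization and 0.05 under median-ratio scaling, and the share of called genes that were higher from 67.3% to 47% and 53.7%. The 6 higher calls held under both scalings. Without Daxx-null 2i replicate 2, which stood apart for other markers (above), the 6 were still called higher and 0 were lower, with Krt18 at 3.58, Krt7 at 3.39, Krt19 at 2.54 and Tead4 at -0.84.

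**Figure D2:**
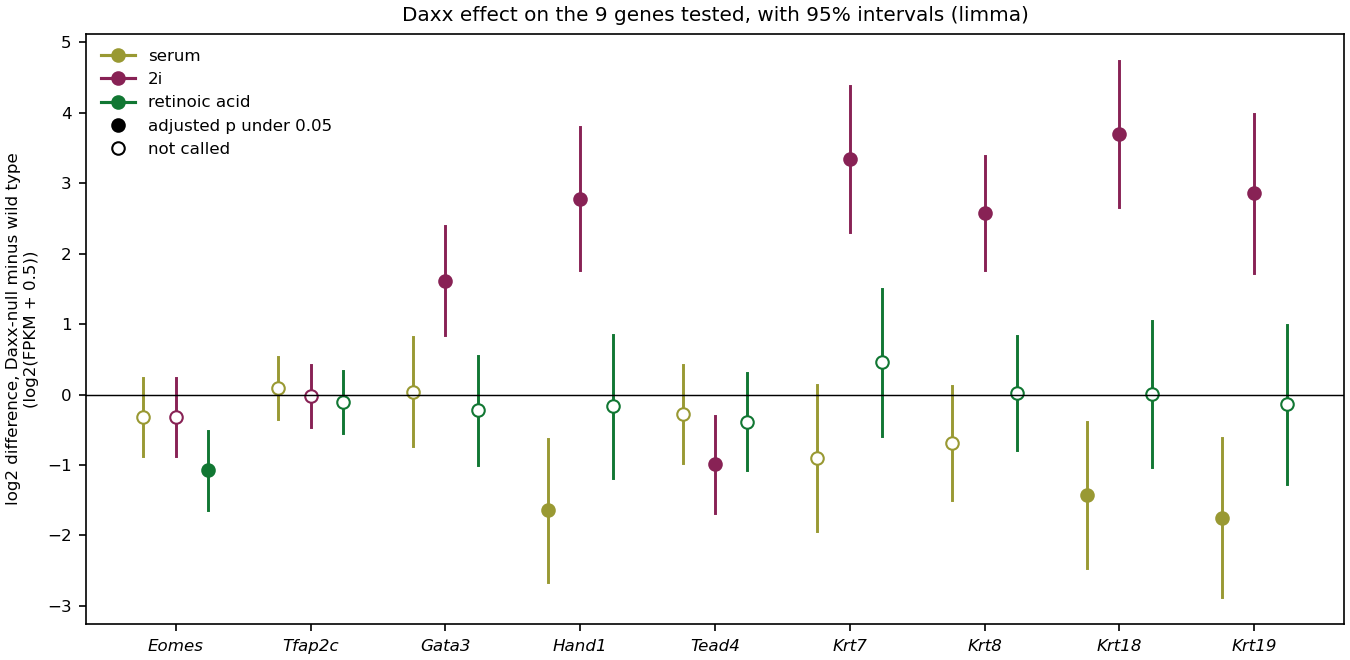
Difference of Daxx-null minus wild type on the log2(FPKM + 0.5) scale (vertical axis) for the 9 genes tested in each culture, with 95% intervals from limma and filled symbols where the adjusted p is under 0.05. In 2i the keratins, Hand1 and Gata3 lie above 0 (1.62 to 3.70), whereas in serum all 4 keratins and Hand1 lie below it (-0.70 to -1.75, of which 3 were called).

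In serum, the standard ESC culture, Krt18, Krt19 and Hand1 were lower in Daxx-null cells, and none of the 9 genes tested was called higher. Called lower were 3 of the 9 genes tested, where 18.9% of all genes were, and called higher were 0 (also 0 at an unadjusted p under 0.05), where 9.29% were. The median difference of the 9 was -0.70, against -0.12 over all genes.

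Krt19 was 18.04, 33.5 and 28.2 FPKM in Daxx-null serum libraries and 118, 133 and 43.3 in wild type. The groups did not overlap, although wild-type replicate 3 lay much nearer the Daxx-null range than its sisters, and the difference was -1.75 (SE 0.532, adjusted p = 0.022). Krt18 was 17.1, 33.2 and 27.1 FPKM against 80.2, 93.6 and 41.4, with the same ordering of libraries. It differed by -1.43 (SE 0.491, adjusted p = 0.0401). Hand1 was 0.817, 2.17 and 1.73 FPKM against 5.33, 7.95 and 4.38, which did not overlap, and differed by -1.65 (SE 0.477, adjusted p = 0.0173).

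The type II keratins were lower by less and were not called. Krt8 was 18.5, 28.0 and 29.0 FPKM in Daxx-null libraries and 51.6, 61.8 and 20.4 in wild type, where replicate 3 fell inside the Daxx-null range. The difference of -0.70 had an interval of -1.50 to 0.11 (adjusted p = 0.191). Krt7 was 2.72, 1.81 and 3.56 FPKM against 6.94, 5.68 and 3.76, which did not overlap but did not pass the test (-0.90, adjusted p = 0.188). Without the third libraries of all groups, 5 genes were called lower, with Krt8 at -1.29 (adjusted p = 0.00444) and Krt7 at -1.32 (adjusted p = 0.0119) added to the 3. The 3 calls were not firm either: 0 remained without wild-type replicate 2 or without Daxx-null replicate 1, and Krt18 missed the threshold in the authors' deposited log2 table (adjusted p = 0.052).

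The remaining regulators were not called in serum. Tead4 was 57.9, 47.8 and 43.8 FPKM against 51.7, 46.4 and 89.9 (-0.28, adjusted p = 0.582), with wild-type replicate 3 alone above the rest. Eomes was 7.49, 10.4 and 10.2 FPKM against 12.3, 12.5 and 10.4 (-0.32, adjusted p = 0.401). Tfap2c was 275, 300 and 294 FPKM against 263, 276 and 273 (0.10, adjusted p = 0.784). Gata3 was near the limit of the measurement in both genotypes, at 0.482 to 1.43 FPKM against 0.741 to 0.885 (0.04, adjusted p = 0.962). Elf5 was 0.258, 0.037 and 0 FPKM in Daxx-null libraries, which is 6, 1 and 0 read units, and 0.393, 0.877 and 0.204 in wild type. Without a filter Elf5 was not called (-0.70, adjusted p = 0.0798).

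The difference between the Daxx effects in 2i and in serum was itself tested as an interaction. It was called higher in 2i for 6 of 9 genes, where 31.5% of all genes were, and lower for 0, where 11.5% were. Krt18 gave 5.13 (SE 0.695, adjusted p = 4.92e-05), the 15th highest of all genes. Krt19 gave 4.61 (SE 0.752, adjusted p = 2.18e-04) and Hand1 4.43 (SE 0.675, adjusted p = 1.25e-04). The type II keratins Krt7 (4.25, adjusted p = 2.17e-04) and Krt8 (3.27, adjusted p = 2.38e-04) followed, and Gata3 had the smallest of the called values (1.58, adjusted p = 0.0219). The call of Gata3 was lost under quantile normalization (0.68, adjusted p = 0.277), in the authors' deposited log2 table (0.72, adjusted p = 0.22), with only the groups compared (adjusted p = 0.0607) and without Daxx-null serum replicate 1 (adjusted p = 0.0605). For Eomes the interaction was 0.00 (interval -0.79 to 0.79), for Tfap2c -0.12 and for Tead4 -0.72 (adjusted p = 0.222), none of them called. Elf5, in the fit without a filter only, gave 1.43 (SE 0.382, adjusted p = 0.00883), from 0 to 31 read units per library. Y-linked RNA also differed between the Daxx-null cells of these cultures (above), and its part in the interaction was not tested.

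After retinoic acid only Eomes was called. In all, 1 of 9 genes was lower, where 2.27% of all genes were, and 0 were higher, where 0.222% were. Eomes, which also acts in early mesoderm and endoderm, was 0.468, 0.519 and 0.797 FPKM in Daxx-null libraries and 1.32, 1.45 and 2.90 in wild type. The groups did not overlap, with 20 to 41 read units against 57 to 130, and the difference was -1.08 (SE 0.263, adjusted p = 0.0391). The call was lost in 11 of 16 alternatives, where its adjusted p reached up to 0.383.

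The keratins overlapped between genotypes after retinoic acid. Krt18 was 602, 645 and 980 FPKM in Daxx-null libraries and 731, 690 and 742 in wild type, with Daxx-null replicate 3 alone above the rest. The difference was 0.01 with a 95% interval of -1.03 to 1.05, and differences inside that interval are not excluded. Krt8 was 206, 186 and 330 FPKM against 195, 196 and 316, and replicate 3 was the highest library of both genotypes. Krt7 (15.4, 24.1 and 29.2 against 13.1, 13.7 and 22.9) and Krt19 (72.7, 89.7 and 165 against 95.4, 99.3 and 153) likewise had replicate 3 as the highest library of both genotypes. Among the regulators, Gata3 was 132, 158 and 236 FPKM against 193, 200 and 205 (-0.23, adjusted p = 0.913). Hand1 was 2.29, 3.20 and 8.18 FPKM against 4.63, 3.39 and 5.90 (-0.17). Tead4 was 11.3, 13.4 and 14.3 FPKM against 11.7, 12.7 and 33.0 (-0.38), with wild-type replicate 3 alone above the rest. Tfap2c was 17.98, 22.3 and 10.96 FPKM against 15.3, 15.1 and 23.8. The Daxx effect after retinoic acid minus that in serum was called for 0 of 9 genes in either direction, where 4.82% of all genes were higher and 3.38% lower. At an unadjusted p under 0.05 in limma, 2 were higher and 0 lower. Its largest values were those of Krt19 (1.61, adjusted p = 0.216) and Hand1 (1.48, adjusted p = 0.206).

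Levels differed widely between cultures. Between serum and 2i in wild-type cells, 3 of 9 genes were higher in 2i, where 24.7% of all genes were, and 2 were lower, where 24.8% were. Gata3 rose by 2.49 from 0.811 ± 0.0721 to 7.78 ± 4.25 FPKM, Eomes by 1.46 from 11.7 ± 1.16 to 33.4 ± 6.02, and Tead4 by 1.13 from 62.7 ± 23.8 to 134.0 ± 31.2. Krt19 fell from 98.2 ± 48.2 to 16.5 ± 10.2 FPKM (-2.66) and Hand1 from 5.89 ± 1.85 to 1.12 ± 0.883 (-2.13). In Daxx-null cells 7 genes were higher in 2i, where 41.8% of all genes were, and 0 were lower, where 21.8% were. All 4 keratins rose here: Krt18 by 4.02, Krt7 by 3.82, Krt8 by 2.92 and Krt19 by 1.95. The gain of Eomes was 1.46 in both genotypes. In the fit without a filter Elf5 rose by 1.32 in Daxx-null cells (adjusted p = 0.000662). It was not called there in wild type (-0.12, adjusted p = 0.803). Daxx-null cells of 2i and serum also differed in Y-linked RNA (above), so the part of the medium cannot be told apart from that difference.

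Retinoic acid separated the factors of the stem state from Gata3 and the keratins. In wild-type cells 4 of 9 genes were higher than in serum, where 30.4% of all genes were, and 3 were lower, where 34.1% were. Gata3 rose from 0.811 ± 0.0721 to 199.2 ± 6.11 FPKM, a ratio of 246 and a log2 difference of 7.25 (SE 0.365, adjusted p = 1.19e-10), the 31st highest of all genes. Krt18 rose by 3.40, Krt8 by 2.50 and Krt7 by 1.51, while Krt19 was not called (0.36, adjusted p = 0.575). Tfap2c fell from 270.9 ± 6.90 to 18.1 ± 4.95 FPKM (-3.90), Eomes from 11.7 ± 1.16 to 1.89 ± 0.880 (-2.41) and Tead4 from 62.7 ± 23.8 to 19.1 ± 12.1 (-1.79). The call of Krt7 was lost without wild-type serum replicate 3 (adjusted p = 0.0564) or retinoic acid replicate 3 (adjusted p = 0.059).

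In Daxx-null cells 6 genes were higher after retinoic acid than in serum, where 33% of all genes were, and 3 lower, where 33.1% were. Gata3 (6.99), Krt18 (4.84), Krt8 (3.22) and Krt7 (2.86) rose here too. Krt19 (1.97, adjusted p = 0.00387) and Hand1 (1.17, adjusted p = 0.0403) were called in addition, from lower serum levels than in wild type. That of Hand1 was lost in most alternatives, among them the fit without the third libraries (0.78, adjusted p = 0.128). Tfap2c (-4.10), Eomes (-3.17) and Tead4 (-1.90) fell. The serum libraries are the shared controls of these culture comparisons.

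The order of the 6 groups differed from gene to gene. Krt18 was highest in Daxx-null (742.1 ± 207) and wild-type retinoic acid (721.0 ± 27.1), which overlapped, then in Daxx-null 2i (413.3 ± 65.0), apart from both neighbours. Wild-type serum (71.7 ± 27.1), wild-type 2i (40.2 ± 27.3) and Daxx-null serum (25.8 ± 8.12) followed, each overlapping the next. Krt8 had the same order, but its Daxx-null 2i libraries (192.2 ± 37.2) overlapped those of retinoic acid (235.8 ± 69.8 in wild type). Krt7 alone among the keratins peaked in Daxx-null 2i (43.8 ± 6.85), apart from Daxx-null retinoic acid (22.9 ± 6.99). Krt19 stood at 98.2 to 115.8 on average in 4 groups, namely both retinoic acid groups, Daxx-null 2i and wild-type serum, with each overlapping the next, and at 26.6 ± 7.86 and 16.5 ± 10.2 in Daxx-null serum and wild-type 2i.

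Hand1 was also highest in Daxx-null 2i (9.42 ± 2.30), which overlapped wild-type serum (5.89 ± 1.85), and was lowest in wild-type 2i. Eomes went by culture, and its genotypes were also apart after retinoic acid, a call lost in 11 of 16 alternatives. Tfap2c changed strongly only after retinoic acid. For Tfap2c, 2i against serum was not called in either genotype (limma adjusted p = 0.174 in wild type and 0.332 in Daxx-null). Eomes was 33.4 ± 6.02 and 26.9 ± 6.26 in 2i, 11.7 ± 1.16 and 9.37 ± 1.64 in serum, and 1.89 ± 0.880 and 0.595 ± 0.177 after retinoic acid (wild type first). Tfap2c lay between 263 and 391 FPKM in every library of serum and 2i and between 10.96 and 23.8 after retinoic acid. Tead4 was apart only in wild-type 2i (134.0 ± 31.2) and after retinoic acid (19.1 ± 12.1 and 13.0 ± 1.53), with the other 3 groups overlapping at 49.8 to 67.0. Elf5 was highest in Daxx-null 2i (1.00 ± 0.412), just apart from wild-type retinoic acid (0.508 ± 0.0516), and lowest in Daxx-null serum (0.0983 ± 0.14).

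The balance among the keratins differed between groups. The sum of the 4 was 80.2 ± 21.2 FPKM in Daxx-null serum and 219.9 ± 98.1 in wild-type serum, 755.7 ± 143.4 in Daxx-null 2i and 94.95 ± 53.1 in wild-type 2i, and 1115 ± 338.1 and 1089 ± 126.3 after retinoic acid. The ratio of Krt18 to its partner Krt8 was 2.27, 2.07 and 2.14 in Daxx-null 2i and 1.29, 1.42 and 0.517 in wild-type 2i, without overlap. In serum it was 0.925, 1.18 and 0.935 in Daxx-null and 1.55, 1.51 and 2.03 in wild-type libraries, again without overlap but in the other direction. After retinoic acid it was 2.91 to 3.47 and 2.34 to 3.75, which overlapped. The ratio was thus highest after retinoic acid.

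The RNA of the type I chains differed in balance between cultures. The ratio of Krt19 to Krt18 was 1.31 ± 0.233 in wild-type and 1.04 ± 0.0236 in Daxx-null serum, so that their RNA was near equal in Daxx-null serum. It was 0.44 ± 0.0942 and 0.251 ± 0.0632 in 2i and 0.16 ± 0.0401 and 0.143 ± 0.0241 after retinoic acid. The genotypes overlapped in retinoic acid and in serum (1.05 to 1.47 and 1.01 to 1.06), and did not overlap in 2i (0.331 to 0.497 and 0.203 to 0.323). The summed type I over the summed type II chains was 2.19 ± 0.118 in Daxx-null 2i and 1.33 ± 0.519 in wild-type 2i. In serum it stood the other way, at 1.86 ± 0.322 in Daxx-null and 3.42 ± 0.0785 in wild-type libraries, and after retinoic acid it was 3.24 ± 0.233 and 3.46 ± 0.72. These ratios are descriptions of RNA, as no protein was measured, and were not tested.

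**Figure D3:**
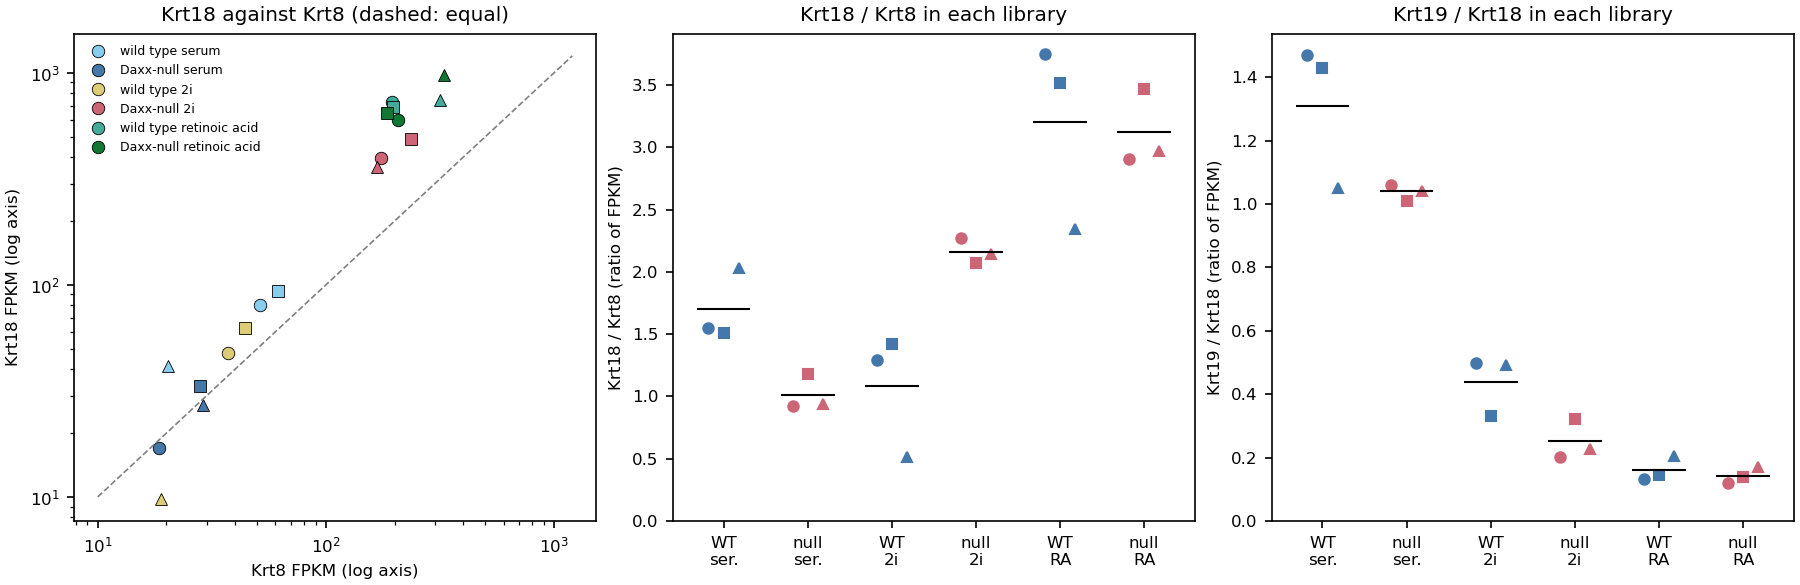
Left, Krt18 against Krt8 FPKM in each of the 18 libraries on log axes, with equality dashed; middle and right, the ratios Krt18/Krt8 and Krt19/Krt18 per library with group means as lines (blue, wild type; red, Daxx-null; circle, square and triangle, replicates 1, 2 and 3; ser., serum; RA, retinoic acid). Krt18/Krt8 is 2.07 to 2.27 in Daxx-null 2i and 0.517 to 1.42 in wild-type 2i, and Krt19/Krt18 goes from 1.01 to 1.47 in serum to 0.121 to 0.206 after retinoic acid.

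The start sites of Krt8 and Krt18 lie 23874 bp apart in mm9, the genes pointing away from each other with 0 other genes between. Within 100000 bp on either side of the pair, 6 of 8 genes were tested, the pair included. In 2i 0 of the others were called: the translation factor gene Eif4b was at 0.01 (adjusted p = 0.964), the focal adhesion gene Tns2 at 0.30, Spryd3 at 0.28 (adjusted p = 0.0537) and the hair follicle keratin Krt79 at -0.26. In serum Krt79 was lower (-1.13, adjusted p = 0.03), with at most 4.08 FPKM in any library. The median difference of genes on chromosome 15 in 2i was 0.161, far below the values of the pair. Over the 18 libraries, log2 values of Krt8 and Krt18 had a Pearson r of 0.98, and 0.84 after subtraction of group means. These r are descriptions over libraries that share their groups.

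Deviations of the keratins from their group means also ran together for Krt8 and Krt19 (r = 0.93) and for Krt18 and Krt19 (r = 0.92), and less so for Krt7 and Krt8 (r = 0.68). Hand1 went with Krt18 within groups (r = 0.84), Gata3 did so with r = 0.75, and Tead4 against it with r = -0.45. The third libraries, low or high in several genes at once, enter all of these values.

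Other regulators of the trophoblast did not move as one body. Of 26 tested, 10 were higher and 4 lower in Daxx-null 2i cells (38.5% and 15.4%, near the shares of all genes given above, with a median of 0.29 against 0.20 for all genes). In serum 8 were higher and 4 lower (30.8% and 15.4%, where 9.29% and 18.9% of all genes were), with a median of 0.01 against -0.12. In 2i the X-linked homeobox gene Rhox9 was higher by 4.09 (836.1 ± 223.2 against 61.7 ± 41.9 FPKM), and Bmp4, a signal of the early embryo that acts between epiblast and extraembryonic ectoderm, was lower by 1.38 on the log2 scale (53.2 ± 12.5 against 139.1 ± 30.6). In serum Bmp4 was instead higher, the largest gain of the list (393.8 ± 19.0 against 123.3 ± 28.1 FPKM, 1.69). Dlx3, a homeobox gene of the placental labyrinth, was lower there (3.52 ± 1.96 against 15.8 ± 4.38 FPKM, -2.15). After retinoic acid 1 was higher, Nr0b1 (0.87), and 1 lower, Rhox9 (-2.10), where 0.222% and 2.27% of all genes were. The lists named here and below were drawn up with earlier results of these data known.

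Of 21 products of differentiated trophoblast, 10 passed the filter on low values, and 6 of these were higher and 2 lower in Daxx-null 2i cells (5 and 2 without the third libraries), against 0 and 0 in serum. Of all genes tested, 31.5% were higher and 15.3% lower in 2i, and 9.29% and 18.9% in serum. A gene could pass the filter through the group where it is high, so the 6 of 10 do not describe all 21. The lists below share this limit. The median difference of the 10 products was 1.83 in 2i and -0.30 in serum. Peg10, a retrotransposon-derived gene needed for the placenta, was the largest, at 1970 ± 959.9 against 225 ± 36.7 FPKM (3.02). Cyp11a1, which starts steroid synthesis in giant cells, was lower (8.27 ± 3.40 against 30.1 ± 9.51, -1.84). After retinoic acid Hsd3b6, a steroid enzyme of giant cells, was the 1 called (5.82 ± 0.983 against 2.17 ± 1.07, 1.31). Of all genes 0.222% were higher and 2.27% lower there.

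The 10 defining trophoblast markers were tested where they passed the filter. All of them are also among the genes described or the trophoblast lists above, so their counts are not separate evidence. Of 6 tested, 3 were higher and 0 lower in Daxx-null 2i, where 31.5% and 15.3% of all genes were. In serum 1 was higher and 1 lower, where 9.29% and 18.9% of all genes were. Plac1 was at 6.73 ± 2.00 FPKM in Daxx-null and 0.998 ± 0.834 in wild-type 2i (2.44). Of the 10, 6 averaged under 1 FPKM in wild-type 2i and 3 in Daxx-null 2i. Which of them were tested thus depends in part on the group where they are high. The summed FPKM of the 10 was 66.7 to 96.5 in Daxx-null 2i and 41.5 to 61.4 in wild-type 2i, 31.9 to 60.1 and 70.9 to 86.4 in serum, and 16.3 to 21.7 and 32.3 to 33.2 after retinoic acid. Much of these sums came from few genes, with Eomes averaging 26.9 FPKM in Daxx-null 2i and Ascl2 59.6 in wild-type serum. Cdx2, a regulator of the lineage, was 15.3 to 22.2 FPKM in Daxx-null 2i and 6.27 to 10.4 in wild-type 2i. The giant cell hormone gene Prl3d1 was at 0 in all Daxx-null 2i libraries, Prl3b1 averaged 0.52 there, and Tpbpa, of the spongiotrophoblast, averaged 0.043. All 3 were at 0 in wild-type serum, wild-type 2i, wild-type retinoic acid and Daxx-null serum libraries.

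Among the other keratins, 7 of 13 tested were higher and 1 lower in Daxx-null 2i cells, but only 2 were higher without the third libraries (1 lower) and 2 under quantile normalization (2 lower). Calls over all 18002 genes in 2i also changed, from 5671 higher (31.5%) and 2760 lower (15.3%). They were 4063 and 2117 without the third libraries, and 3722 and 4205 under quantile normalization. These shifts of all genes bear on the lists below as well. The median was 1.17 in 2i and -0.28 in serum. Krt17, a keratin of wounded and appendage epidermis, was higher in 2i (12.7 ± 6.54 against 2.07 ± 1.06 FPKM, 2.34) and, unlike the simple keratins, also in serum (118 ± 21.4 against 33.5 ± 3.48, 1.79). Krt42 was lower in 2i (3.40 ± 1.38 against 27.1 ± 9.19, -2.84) and Krt12, of the cornea, in serum (0.559 ± 0.117 against 2.02 ± 0.835, -1.19). The gains of the 4 simple keratins in 2i were thus not shared by every keratin.

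Genes of desmosomes and epithelial junctions, to which keratin filaments anchor, were higher in 14 and lower in 2 of 23 cases in Daxx-null 2i cells (14 and 3 without the third libraries), and higher in 3 and lower in 4 in serum. Of all genes, 31.5% were higher and 15.3% lower in 2i, and 9.29% and 18.9% in serum. The serum counts of this list (13% and 17.4%) were near those shares. The median was 1.19 in 2i and -0.26 in serum. The tight junction gene Cldn6 was higher by 2.67 in 2i (89.4 ± 5.86 against 16.1 ± 9.30 FPKM). In serum the adhesion gene Epcam was higher (761.3 ± 25.9 against 368.7 ± 62.5, 1.06) and Cldn3 lower (10.6 ± 3.31 against 39.1 ± 8.60, -1.85). After retinoic acid 0 of 23 were called in either direction, where 0.222% of all genes were higher and 2.27% lower.

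Genes that TEAD and YAP are known to activate were higher in 10 and lower in 0 of 13 cases in Daxx-null 2i cells (8 and 1 without the third libraries, 10 and 2 under quantile normalization), where Tead4 itself was lower. Of all genes, 31.5% were higher and 15.3% lower in 2i, and 9.29% and 18.9% in serum. The median was 1.54 in 2i and 0.10 in serum. Ankrd1, a common reporter of YAP activity, was 17.9, 11.01 and 15.0 FPKM in Daxx-null libraries and 2.44, 4.04 and 0 in wild type, a difference of 2.98 (SE 0.607, adjusted p = 9.5e-04). In serum 3 were higher, the largest being the LIM protein gene Ajuba (827.0 ± 15.6 against 311.3 ± 87.6, 1.45), and 1 was lower, the receptor kinase gene Axl (2.06 ± 0.354 against 10.0 ± 1.18, -2.04). After retinoic acid 0 were called, where 0.222% of all genes were higher and 2.27% lower.

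**Figure D4:**
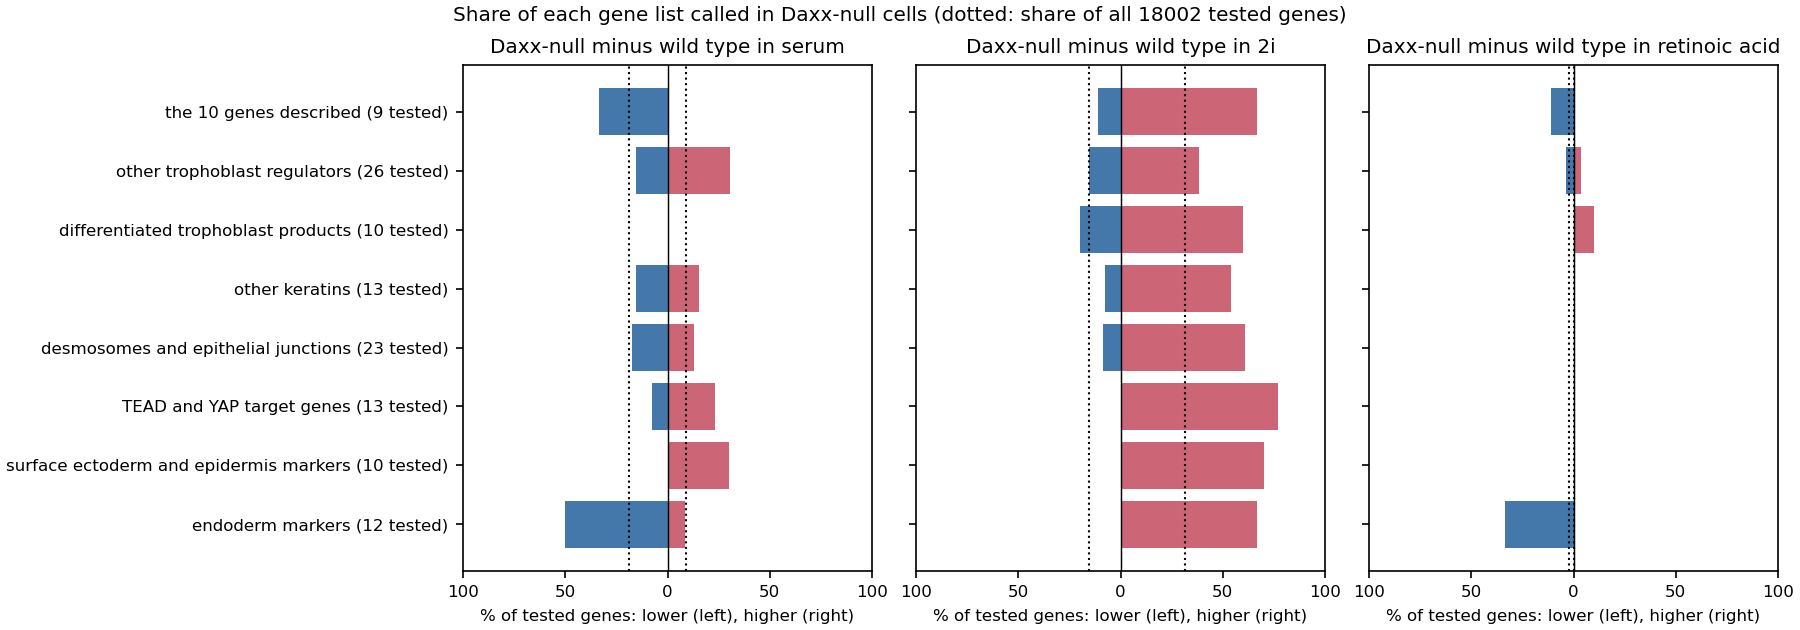
Share of the tested genes of each list that were called lower (bars to the left) and higher (bars to the right) in Daxx-null cells, in percent, for each culture, with dotted lines at the shares of all 18002 tested genes. In 2i the lists chosen for display pass the dotted line at 31.5% to the right, from 38.5% of the other trophoblast regulators to 76.9% of the TEAD and YAP targets. Lists not shown lay on both sides of that line. Neural (30%), fibroblast (22.2%), mesoderm (20%) and pluripotency markers (0%) were below it, and germ cell and defining trophoblast markers (50% each) above it. In serum 6 of 12 endoderm markers are lower, where 18.9% of all genes are. Some lists share genes.

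Markers of other cell types that use simple keratins, Gata3 or Hand1 were counted in the same way. Of all genes, 31.5% were higher and 15.3% lower in 2i, and 9.29% and 18.9% in serum. After retinoic acid the shares of all genes were 0.222% and 2.27%. Endoderm markers were higher in 8 and lower in 0 of 12 cases in Daxx-null 2i (6 and 0 without the third libraries) and lower in 6 and higher in 1 in serum, with medians of 1.64 and -1.26. Their summed FPKM was 404.5 to 771.8 against 86.9 to 189.2 in 2i and 165.8 to 199.4 against 332 to 335.9 in serum. After retinoic acid it was 702.2 to 852.5 in Daxx-null and 1198 to 2111 in wild-type libraries, with 4 of 12 lower and 0 higher. Dab2, an adaptor of visceral endoderm, was 120.5 ± 12.6 against 19.0 ± 13.3 in 2i (3.05), and Gata4 was 1.95 ± 0.183 against 18.5 ± 2.39 in serum (-2.95). Ttr was at 0 in Daxx-null serum and Afp in wild-type serum libraries.

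Markers of surface ectoderm and epidermis were higher in 7 of 10 cases in 2i and 3 of 10 in serum, with 0 lower in either and medians of 1.44 and 0.43. This list shares Krt5, Krt14 and Krt15 with the other keratins, and Tfap2a with the other trophoblast regulators. Of the latter, Lats2 is also a TEAD and YAP target and Esrrb a pluripotency marker. The counts of these lists are thus not fully separate evidence. The summed FPKM was 921 to 1517 against 406.7 to 541.2 in 2i and 867.9 to 1106 against 368.9 to 523 in serum. Wnt6 was the largest in 2i (86.3 ± 8.21 against 8.87 ± 6.20, 3.55) and Grhl2 in serum (1.99). Mesoderm markers were higher in 2 and lower in 1 of 10 cases in 2i (1 and 6 under quantile normalization), with sums of 60.0 to 256.8 against 49.2 to 62.7. Neural markers were higher in 3 and lower in 1 of 10 cases (2 and 3 without Daxx-null replicate 2), germ cell markers higher in 4 and lower in 0 of 8, and fibroblast markers higher in 2 and lower in 1 of 9 (0 and 1 without the third libraries). The neural (30%), mesoderm (20%) and fibroblast (22.2%) shares called higher were below the 31.5% of all genes, and the germ cell share was 50%. Pluripotency markers were lower in 5 of 10 cases in Daxx-null 2i (2 under quantile normalization and 2 without Daxx-null replicate 2), with sums of 10630 to 20290 against 23950 to 25470. In serum 18.9% of all genes were lower and 9.29% higher, and lower calls of markers were not confined to endoderm. Fibroblast markers were lower in 4 of 9 cases (44.4%) and mesoderm markers in 3 of 10 (30%), with 0 higher. Germ cell markers there were lower in 2 and higher in 1 of 8, neural markers in 0 and 1 of 10, and pluripotency markers in 1 and 0 of 10. After retinoic acid pluripotency markers were lower in 5 of 10 cases and germ cell markers in 4 of 8, with 0 higher. Of all genes 2.27% were lower and 0.222% higher there. The part of any of these cell types in the keratin, Hand1 and Gata3 differences was not tested.

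The genes most like each of the 9 tested genes were found by Pearson r of log2 values over the 18 libraries, among 11733 genes with a group mean of at least 20 FPKM. This is a description over libraries that share groups. Krt18 was most like Rnf128 (r = 0.994), followed by Olfml2b and Dzip1 (both 0.982), and Krt8 was also most like Rnf128 (0.984), followed by Jun (0.98) and Tpm1 (0.971). Gata3 was most like Hmga2 (0.993), Phlda1 (0.989) and Nr2f2 (0.987). Tfap2c was most like Orc1 (0.995), Tfcp2l1 and Map7 (both 0.993), and Eomes like Jak3 (0.992), Abcb1a (0.99) and Kit (0.988). Tead4 was most like Xpnpep1 (0.981), Sec11c and Arntl (both 0.979). Krt7 (Asb13, 0.962), Krt19 (Pxdc1, 0.946) and Hand1 (Nudt18, 0.918) had less close matches.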

How the data were processed

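RNA was measured in 18 mouse E14Tg2a ESC libraries, 3 for each of 6 groups of genotype and culture. DNase-treated RNA was enriched with oligo(dT) beads and depleted of ribosomal RNA, per the labels' protocols. FPKM of exons, 1 table per library, were deposited. The submitters' processing notes name mm9, HOMER 4.8, Bowtie2 2.2.6 and limma. Strand and the scale of the FPKM are not given in the sources used here, and FPKM times length summed to 5.82 to 6.10 M, so the total was not 1 M. The authors also deposited log2 values. They matched quantile-normalized log2(FPKM + 1) within 4.99e-09 for genes above the median and served as an alternative. The labels do not say how replicates were separated, so the spread behind a p-value may be technical.

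Low FPKM were whole multiples (100% within 0.1) of a unit per library, which gave 51.1 to 82.4 M units in exons. A gene with few units is measured coarsely. Genes were tested with limma 3.58.1 (R 4.3.3, tables with Python 3.11.15) on log2(FPKM + 0.5), with a variance trend, for the 18002 genes with 3 or more libraries at 1 FPKM or above. One fit held all 18 libraries and 6 group means, and 9 contrasts were drawn from it. Calls used a Benjamini-Hochberg adjusted p under 0.05. The fit was tested on simulated data. The genes described and the lists were chosen with earlier results of these data known. All 10 genes are named, with, per list and contrast, the called genes of largest and smallest difference at a mean of at least 2 FPKM, except a gene that is not reported here. For likeness, the 3 highest r at a group mean of at least 20 FPKM were taken. Genes outside these rules (Cdx2, Tpbpa, Prl3b1, Prl3d1, Afp, Ttr and the neighbours of Krt8) were named as markers or by position. Alternatives were other pseudocounts, no filter, other scalings, the deposited log2 values, only the groups compared, a replicate block and leaving out each library. Leaving out the third libraries and removing chromosome shifts were chosen after seeing the data. Repeat values were not used here.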

Additional observations from a re-analysis of the deposited data

Results flagged for a closer look

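The Daxx effect (Daxx-null minus wild type, on the log2 scale) differed between 2i and serum for 6 of the 9 genes tested, by a limma test of the difference itself with adjustment over all genes. The difference was 5.127 for Krt18, 4.61 for Krt19, 4.426 for Hand1, 4.249 for Krt7, 3.271 for Krt8 and 1.58 for Gata3, with adjusted p-values from 4.92e-05 to 0.0219. The call of Gata3 was lost in 4 alternatives, with adjusted p-values from 0.0605 to 0.277. For Krt18, Krt19 and Hand1 each of the 3 Daxx-null libraries was above all wild-type libraries in 2i and below all of them in serum. The same held for Krt7, whose serum difference was not called. Y-linked RNA also differed between the Daxx-null cells of these cultures (above), and its part was not tested.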

How the results depend on the processing

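Of the log2 differences of the 9 genes in 9 contrasts, 1194 values under the first set of alternatives kept their call or lack of one, 40 lost and 8 gained a call. Under the 2 alternatives chosen after seeing the data 154 kept them, 3 lost and 5 gained a call. In 2i the count of genes called higher stayed between 5 and 7 (6 as reported). The count lower there (1) was 2 under quantile normalization and in the authors' deposited log2 table, the gain being Eomes, and 0 to 1 with 1 library left out. The count lower in serum (3) was 5 without the third libraries and 0 to 4 with 1 library left out. After retinoic acid the count lower (1, Eomes) was 0 with a pseudocount of 1, no filter, quantile normalization, the deposited log2 table, only the groups compared or without the third libraries, and 0 to 1 with 1 library left out. The Daxx effect in 2i minus serum had 1 lower gene, Tead4, without the third libraries, and the effect in retinoic acid minus serum had 2 higher genes then (Krt7 and Krt18) and 1 with only the groups compared. The cause of these shifts was not tested. With chromosome shifts removed, Krt18 in serum missed the threshold (adjusted p = 0.0513). Within a culture, deviations from the group mean of same-numbered wild-type and Daxx-null libraries correlated at -0.162 to 0.154. Same-numbered libraries of different cultures were not compared, so pairing across cultures was not tested. Wild-type replicate 3 was the highest of its group for Tead4 in serum, 2i and retinoic acid alike. A replicate block took the retinoic acid count lower from 1 to 0. Genes with few units (Elf5, and Hand1 in wild-type 2i) are limited by depth.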
